A study of Saccharomyces cerevisiae with 8 samples.

Results

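The 8 sense codons that encode proline (CCT, CCC, CCA and CCG) and glycine (GGT, GGC, GGA and GGG) were described here one by one, out of 61 sense codons in the table. They were picked by amino acid under the standard genetic code, with earlier results of these data known. Each codon has an A-site occupancy, or pause score, in 8 yeast ribosome profiling libraries, 2 for each combination of strain and inhibitors. The pause score divides the density of ribosome-protected footprints (RPFs) in a window of 3 nt on the codon by that over the whole coding sequence. A value of 1 is therefore the level of an average position, and a score can rise at one codon only relative to others.

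The eEF3d strain (yCW35) carries YEF3, the gene for the elongation factor eEF3, under the GAL1 promoter and fused to an auxin degron (3mAID), together with a deletion of its paralog HEF3 and the auxin receptor osTIR1 under the ADH1 promoter at the HO locus. WT was BY4741, which has neither the degron nor the HEF3 deletion. The study's methods describe both strains as grown overnight in galactose and raffinose and then moved to glucose for 8 h. The study describes depletion by glucose together with auxin, and its methods do not say which of these cultures received auxin. The strains thus differ in several alleles, and the table holds no eEF3d cells with eEF3 present. Lysates contained cycloheximide (CHX) with either tigecycline (TIG) or anisomycin (ANS). The 21 nt RPFs of CHX + TIG libraries come from ribosomes whose A site is empty, waiting for aminoacyl-tRNA, and the 28 nt RPFs of CHX + ANS libraries from ribosomes in the pre-translocation (PreTrans) state. Of the 8 libraries, 3 were re-analyzed from an earlier study, namely replicate 1 of WT with TIG and the 2 of WT with ANS, and the other 5 were newly prepared. In the 28 nt comparison the strain and the origin of the libraries therefore cannot be told apart.

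Proline is the only amino acid of the genetic code whose side chain closes on its own backbone nitrogen, and it is a poor substrate for peptide bond formation. Glycine has no side chain beyond a hydrogen atom. Each is encoded by a box of 4 codons that share their first bases, so that only the third base, read by the first anticodon base under wobble rules, tells the codons of a box apart. eEF3 is an ATPase of fungi that is known for releasing the deacylated tRNA from the E site, and eIF5A is the factor known for helping peptide bond formation at proline. Decoding of a codon ends when its tRNA is accommodated, whereas the PreTrans state comes after the peptide bond has formed.

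The tRNAs that read these codons are shown because synonymous codons differ at the base that meets the first anticodon position. RefSeq annotation of the R64 assembly holds 12 nuclear tRNA genes for proline, of 2 anticodons, and 21 for glycine, of 3 anticodons. The lines give the anticodon arm (stem, loop, stem) of 1 gene for each anticodon, 5′ to 3′ as in the DNA without introns, with the anticodon in capitals.
Proline, anticodon UGG, pairs with CCA: ctcgcttTGGgtgcgag
Proline, anticodon AGG, pairs with CCT: ctcgcttAGGgtgcggg
Glycine, anticodon GCC, pairs with GGC: caacgttGCCatcgttg
Glycine, anticodon UCC, pairs with GGA: ccaccctTCCaaggtgg
Glycine, anticodon CCC, pairs with GGG: catgcttCCCaagcatg

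The UGG arm comes from YNCA0002W (chrI:139152-139254, forward strand) and stands in all 10 proline genes with this anticodon, each of which has an intron. The AGG arm comes from YNCC0004C (chrIII:123577-123648, reverse strand) and is shared by 2 genes. The GCC arm comes from YNCB0005C (chrII:197629-197699, reverse strand) and is the same in 16 genes, and the UCC arm, from YNCG0035W (chrVII:779616-779687, forward strand), is the same in 3. The CCC arm comes from YNCD0027C (chrIV:1257008-1257079, reverse strand), and the 2 genes with this anticodon have different arms. No gene in the list has an anticodon that pairs by Watson-Crick rules with CCG or CCC, nor with GGT. In background terms, the first A of the AGG anticodon is usually read as inosine, which also pairs with C, and the GCC anticodon also reads GGT. CCG is likewise left to wobble pairing, and which of the proline tRNAs reads it was not examined here. Codon use differs within each box. CCA and GGT are the most used codons of their boxes, at 17.68 and 22.73 per 1000 codons over 5955 nuclear coding sequences. CCG and GGG are the least used, at 5.361 and 6.211 per 1000, and stand at ranks 57 and 55 of 61.

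The first question was how far occupancy at these codons differed between the strains while ribosomes waited in the PreTrans state. All 8 codons were lower in eEF3d than in WT cells in 28 nt RPFs, and the drop was larger at each of the 4 glycine codons than at any proline codon. GGC had occupancies of 1.003 and 0.897 in eEF3d cells, against 2.39 and 2.12 in WT cells. GGA had 1.25 and 1.19 in eEF3d cells, against 2.45 and 2.26 in WT cells. GGG had 1.25 and 1.15 in eEF3d cells, against 2.30 and 2.17 in WT cells. At these 3 glycine codons each WT library was thus above 2, and the highest eEF3d value was 1.25. GGT, the most used glycine codon, was the lowest of its box in all 4 libraries, with 0.869 and 0.842 in eEF3d cells, against 1.67 and 1.63 in WT cells.

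Among proline codons, CCG had 1.74 and 1.71 in eEF3d cells, against 2.07 and 2.30 in WT cells. CCC had 1.18 and 1.24 in eEF3d cells, against 1.94 and 1.84 in WT cells. CCT had 1.13 and 1.16 in eEF3d cells, against 1.56 and 1.60 in WT cells. CCA, read by the most numerous proline tRNA genes, had 1.24 and 1.28 in eEF3d cells, against 1.59 and 1.55 in WT cells. The strains did not overlap at any of the 8 codons, and both eEF3d libraries were below both WT libraries at 41.0% of all 61 codons. In WT cells the 8 codons held ranks 2 to 10 of 61 by mean occupancy, with CGA above and CGG among them. In eEF3d cells CCG was the highest of all 61 codons, CCA, GGA and CCC held ranks 6, 7 and 9, and GGG and CCT ranks 10 and 15. GGC and GGT stood at ranks 37 and 50 there.

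**Figure D1:**
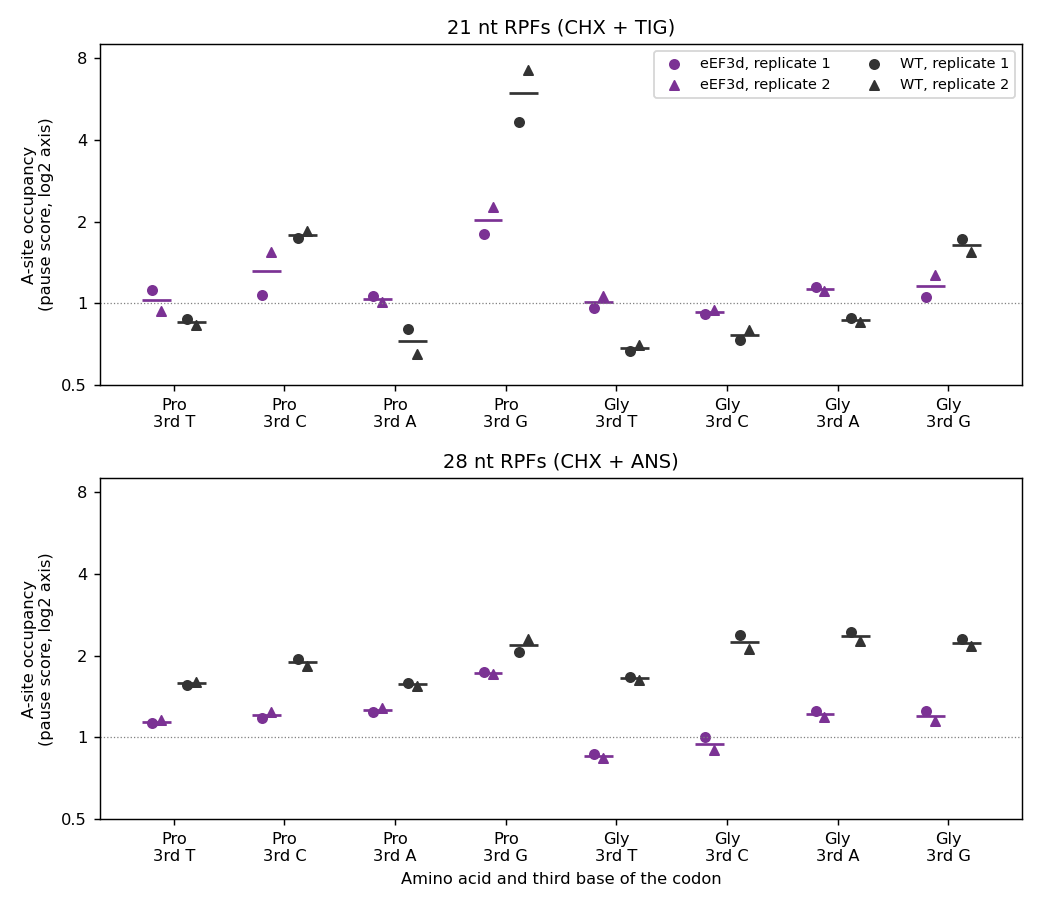
A-site occupancy (pause score, log2 axis) of the 8 proline and glycine codons, named by amino acid and last base, in 21 nt RPFs (top) and 28 nt RPFs (bottom). Points are single libraries, short lines are means of 2 replicates, eEF3d in purple to the left of WT in black, and the dotted line marks 1. In the lower panel each WT point lies above the eEF3d points of its codon, and in the upper panel the WT points of the proline codon ending in G reach 4.64 and 7.21.

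The test by limma, a linear model on log2 occupancy whose variances are moderated across all codons, was run over all 61 codons with Benjamini-Hochberg adjustment. It called all 8 codons lower in eEF3d cells in 28 nt RPFs at an adjusted p under 0.05, against 26.2% of the 61 codons called lower. The median change of the 8 was −0.77 on the log2 scale, beside 0.03 over all 61. GGC changed most, by −1.25 ± 0.09 (SE; 2 libraries per strain; limma, adjusted p = 0.00023), which is 0.422 times the WT level. GGT, GGA and GGG changed by −0.95, −0.95 and −0.90, each with an adjusted p of 0.00023. CCC changed by −0.64 ± 0.06 (limma, adjusted p = 0.00048) and CCT by −0.47 ± 0.05 (limma, adjusted p = 0.0012). CCG, at −0.34 ± 0.07 (limma, adjusted p = 0.0075), and CCA, at −0.32 ± 0.05 (limma, adjusted p = 0.0048), changed least. The calls of CCG and CCA were lost without moderation of the variances (adjusted p = 0.1 and 0.052), and that of CCG with the replicate number as a block (limma, adjusted p = 0.07). The 4 glycine codons lay at 0.422 to 0.537 times and the 4 proline codons at 0.642 to 0.803 times their WT level. CGA and CGG, the arginine codons that ranked with these 8 in WT cells, were also called lower. They changed by −0.98 and −0.61 (limma, adjusted p = 0.00023 and 0.0012), so the drop was not particular to proline and glycine. The study calls the replicates biological. These p-values combine the spread between 2 such libraries per strain at a codon with that at all codons. The shared spread had a weight of 3.64 degrees of freedom, against 2 for the codon itself.

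Averaged over the 4 codons on the log2 scale, glycine was −1.01 lower in eEF3d cells (95% interval −1.14 to −0.88; limma over 20 amino acids, adjusted p = 3.9e-05). Proline was −0.44 lower (95% interval −0.53 to −0.36; adjusted p = 0.00019 by limma). Both amino acids were called lower, against 20% (4) of the 20 amino acids, the others being Arg at −0.39 and Val at −0.12. The intervals of proline and glycine did not overlap, and the difference between the amino acids was not tested. Set against the median codon of each library, the proline box stood at 0.40 in eEF3d cells and 0.93 in WT cells, and the glycine box at 0.06 in eEF3d cells and 1.16 in WT cells. Of the 8 boxes of 4 codons in the code, glycine was thus the highest and proline the next in WT cells. In eEF3d cells proline was the highest and glycine the fourth.

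The same codons were then compared between strains while the A site was empty, in 21 nt RPFs. Here the codons of a box did not move together. CCG, GGG and CCC, the least used of the 8 codons, were lower in eEF3d cells, and the other 5 had higher values. CCG had 1.79 and 2.26 in eEF3d cells, against 4.64 and 7.21 in WT cells. Its WT replicates differed by 0.64 on the log2 scale, the largest gap between replicates among the 8 codons, yet both eEF3d libraries stayed below the lower of them. CCC had 1.07 and 1.55 in eEF3d cells, against 1.74 and 1.84 in WT cells. GGG had 1.05 and 1.27 in eEF3d cells, against 1.72 and 1.55 in WT cells. At these 3 codons the strains did not overlap, and both eEF3d libraries were below both WT libraries at 34.4% of all 61 codons.

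CCA had 1.06 and 1.01 in eEF3d cells, against 0.804 and 0.648 in WT cells. GGT had 0.958 and 1.06 in eEF3d cells, against 0.670 and 0.703 in WT cells. Both codons are the most used of their box. In each WT library both stood below 1, as did GGA, GGC and CCT. GGA had 1.15 and 1.11 in eEF3d cells, against 0.885 and 0.854 in WT cells. GGC had 0.915 and 0.942 in eEF3d cells, against 0.735 and 0.795 in WT cells. CCT had 1.12 and 0.937 in eEF3d cells, against 0.877 and 0.830 in WT cells. The strains did not overlap at these 5 codons either, and the eEF3d values were above the WT values, as at 47.5% of all 61 codons. In eEF3d cells 7 of the 8 codons lay between 0.915 and 1.55 in 21 nt RPFs, and CCG alone was above that range.

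limma called 3 of the 8 lower in eEF3d cells in 21 nt RPFs, against 27.9% of the 61 codons. CCG changed by −1.52 ± 0.21 (SE from 1 SD shared by all codons; 2 libraries per strain; limma, adjusted p = 1.9e-09), GGG by −0.50 ± 0.21 (adjusted p = 0.033) and CCC by −0.47 ± 0.21 (adjusted p = 0.044). This SE is the same at every codon. It does not widen with the CCG replicate gaps of 0.64 in WT and 0.33 in eEF3d cells on the log2 scale. The CCG call was lost without moderation of the variances. With the replicate number as a block the calls of GGG and CCC were lost (limma, adjusted p = 0.057 and 0.071). It called 2 higher, against 34.4% of the 61 codons, namely GGT by 0.56 ± 0.21 (limma, adjusted p = 0.018) and CCA by 0.52 ± 0.21 (limma, adjusted p = 0.025). GGA, GGC and CCT, at 0.37, 0.28 and 0.26, did not pass the test (limma, adjusted p = 0.11, 0.23 and 0.27). The median change of the 8 was 0.27, beside 0.17 over all 61 codons, so that the typical codon itself was higher in eEF3d cells as deposited. Relative to the library median, CCG, CCC and GGG were again lower and 0 were called higher, with 4 of 8 at an unadjusted p under 0.05 in either direction. Relative to the library mean, 5 were higher and 1, CCG, was lower. Over all 61 codons the split of higher and lower calls was 21 and 17 as deposited, 12 and 20 relative to the median, and 30 and 6 relative to the mean.

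These calls in 21 nt RPFs were lost when either WT library was left out, while the changes kept their direction. Such a fit estimates the spread from the eEF3d libraries alone, and why the calls were lost was not tested. Without WT replicate 1, which leaves only newly prepared libraries, limma called 0 of the 8 and 0 of the 61 codons, with 3 of 8 and 20 of 61 at an unadjusted p under 0.05, and CCG stood at −1.84 (limma, adjusted p = 0.082). Without WT replicate 2 it again called 0 of each, with 2 of 8 and 27 of 61 at an unadjusted p under 0.05, and CCG stood at −1.20 (limma, adjusted p = 0.062). CCG changed by −1.35 without eEF3d replicate 1 and by −1.69 without eEF3d replicate 2. Without moderation of the variances 0 of the 8 passed, with 3 at an unadjusted p under 0.05. CCC stood at −0.21 without eEF3d replicate 1 and at −0.74 without eEF3d replicate 2. All 8 codons kept their direction in each of these fits. In 28 nt RPFs all 8 codons stayed lower in eEF3d cells whichever library was left out, with changes from −1.33 at GGC to −0.26 at CCG.

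**Figure D2:**
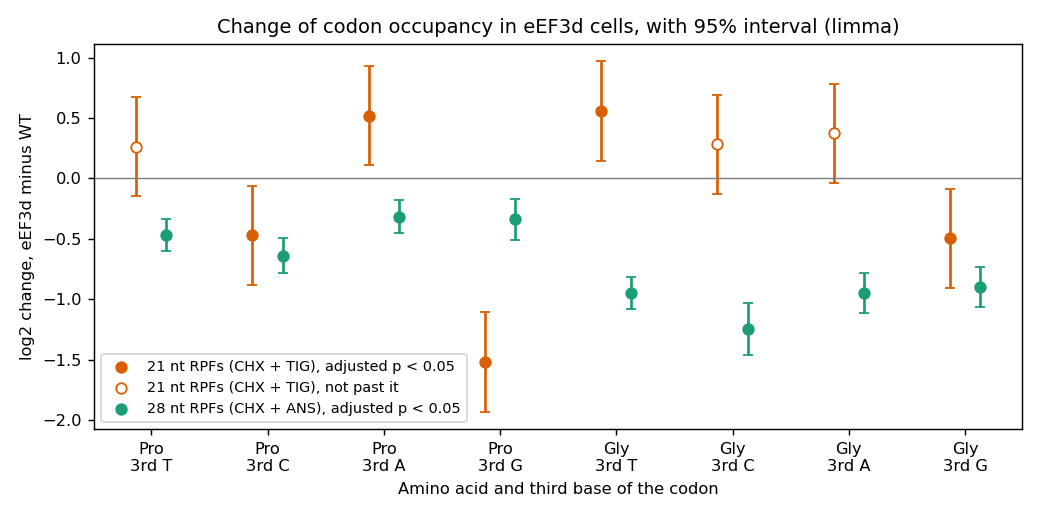
Change of log2 occupancy (eEF3d minus WT) at the 8 codons, named by amino acid and last base, with the 95% interval from limma, for 21 nt RPFs (orange) and 28 nt RPFs (green). Filled points passed an adjusted p of 0.05 and open points did not. The 28 nt changes are all below 0, from −1.25 to −0.32, whereas the 21 nt changes run from −1.52 at the proline codon ending in G to 0.56 at the glycine codon ending in T.

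An interaction term over all 8 libraries tested whether the strain difference depended on the kind of footprint. The 28 nt change was the lower one at 5 of the 8 codons, against 31.1% of the 61 codons, and the higher one at 1, against 19.7%. GGC, GGT and GGA differed most, by −1.53, −1.50 and −1.32 on the log2 scale, and CCA and CCT by −0.84 and −0.73 (limma, adjusted p from 1.2e-05 to 0.005). CCG went the other way, by 1.18 ± 0.25 (SE; limma, adjusted p = 0.0013, and 0.074 without moderation), as its occupancy in eEF3d cells was 0.349 times the WT level in 21 nt RPFs and 0.790 times in 28 nt RPFs. CCC and GGG, lower in eEF3d cells in both kinds of footprint, differed by −0.17 (95% interval −0.64 to 0.30) and −0.40 (95% interval −0.81 to 0.01), and neither passed the test (limma, adjusted p = 0.54 and 0.096). The median over the 8 codons was −0.78, beside −0.14 over all 61.

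Differences among synonymous codons were then compared as log2 ratios of a pair of codons within one library, which do not depend on how a library is scaled. There are 6 such pairs in each box, 12 in all, and 87 in the whole table. Pairs that share a codon are not independent. In 21 nt RPFs of WT cells, the codon ending in G was the highest of its box and CCC the next in the proline box. The G-ending codon was the highest in both WT replicates in 7 of all 8 boxes of 4 codons. In the other 6 boxes it was also called lower in eEF3d cells, by −0.63 (TCG) to −1.43 (CGG). The ratio of CCG to CCA was 1.69 and 2.24 in eEF3d cells, against 5.77 and 11.1 in WT cells. CCG over CCT was 1.61 and 2.42 in eEF3d cells, against 5.29 and 8.68 in WT cells. CCG over CCC was 1.67 and 1.46 in eEF3d cells, against 2.67 and 3.91 in WT cells. The lowest WT ratio exceeded the highest eEF3d ratio in each of these pairs.

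In the same 21 nt RPFs, CCC over CCA was 1.01 and 1.53 in eEF3d cells, against 2.16 and 2.84 in WT cells. For glycine, GGG over GGT was 1.10 and 1.20 in eEF3d cells, against 2.57 and 2.20 in WT cells. GGG over GGC was 1.15 and 1.35 in eEF3d cells, against 2.34 and 1.95 in WT cells. GGG over GGA was 0.920 and 1.15 in eEF3d cells, against 1.94 and 1.81 in WT cells. GGG thus stood apart from the other glycine codons in WT cells, whereas in eEF3d cells the 4 glycine codons lay within a factor of 1.25 and 1.35 of each other in the 2 libraries.

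In eEF3d cells limma called 3 of the 12 pairs different from a ratio of 1 in 21 nt RPFs, against 44.8% of the 87 pairs. These were CCG over CCT, CCA and CCC, at 0.98, 0.96 and 0.64 on the log2 scale (limma, adjusted p = 8.5e-07, 1.6e-06 and 0.00054). None of the 6 glycine pairs was called, and the nearest were GGG over GGC at 0.32 (95% interval 0.00 to 0.63; limma, adjusted p = 0.093) and GGC over GGA at −0.28 (95% interval −0.59 to 0.03; limma, adjusted p = 0.14). In WT cells limma called 9 of the 12 pairs, against 79.3% of the 87. The largest was CCG over CCA, an 8.01-fold ratio (log2 SE 0.17), with log2 ratios of 2.53 and 3.48 in the 2 WT libraries. This SE comes mostly from the spread of all 87 pairs. Moderation gave that spread a weight of 62.6 degrees of freedom, against 2 for the libraries of the pair itself. CCG over CCT stood at 2.76 on the log2 scale, CCG over CCC at 1.69, CCC over CCA at 1.31 and GGG over GGT at 1.25. CCT over CCA, GGC over GGT and GGC over GGA, at 0.24, 0.16 and −0.19, did not pass the test in WT cells. In eEF3d cells CCC over CCT stood at 0.73 without eEF3d replicate 1 and at −0.06 without eEF3d replicate 2. Without moderation of the variances 0 of the 12 (0 of the 87) passed in eEF3d cells, with 0 of the 12 also at an unadjusted p under 0.05. In WT cells 6 of the 12 (49 of the 87) passed in that setting.

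The change of these ratios between strains was tested directly. In 21 nt RPFs, 8 of the 12 ratios differed between eEF3d and WT cells, all towards 0 in eEF3d cells, against 60.9% of the 87 pairs called in either direction. CCG over CCA changed by −2.04 ± 0.24 (limma, adjusted p = 2.3e-10), CCG over CCT by −1.78 and CCG over CCC by −1.05. The SE again comes mostly from the spread of all 87 pairs. CCC over CCA and over CCT changed by −0.99 and −0.73. GGG over GGT, GGA and GGC changed by −1.05, −0.87 and −0.78 (limma, adjusted p = 4.5e-05, 0.00056 and 0.0019). The 4 pairs that did not pass were those among CCT and CCA and among GGC, GGT and GGA, with changes of −0.27 to 0.18. The median absolute change was 0.82 over the 12 pairs, beside 0.56 over the 87. Without moderation of the variances, on the residual degrees of freedom of single pairs, 0 of the 12 changes passed, with 4 at an unadjusted p under 0.05. The change of CCC over CCT was −0.34 without eEF3d replicate 1 and −1.13 without eEF3d replicate 2.

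**Figure D3:**
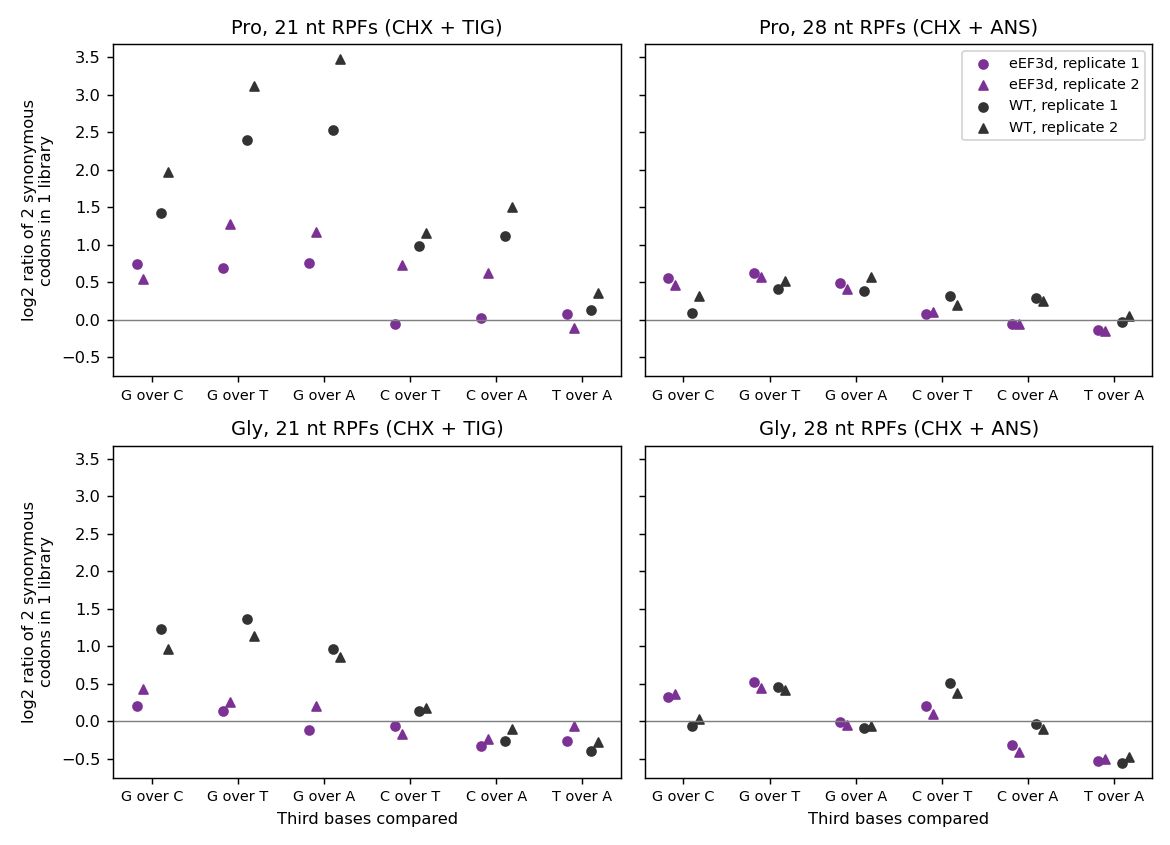
log2 ratio of occupancy between 2 synonymous codons within 1 library, for the 6 pairs of the proline box (top) and of the glycine box (bottom), named by their last bases, in 21 nt RPFs (left) and 28 nt RPFs (right). Each point is a library, eEF3d in purple to the left of WT in black. In 21 nt RPFs the WT ratios of codons ending in G lie above the eEF3d ratios in both boxes, and in 28 nt RPFs no ratio exceeds 0.63 in either strain.

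In WT cells the synonymous codons of both boxes lay closer together in 28 nt than in 21 nt RPFs, as in the other 6. Those 6 had mean SDs of log2 occupancy of 0.641 to 1.33 in 21 nt and 0.210 to 0.596 in 28 nt RPFs. In 28 nt RPFs the ratio of CCG to CCA was 1.41 and 1.33 in eEF3d cells, against 1.30 and 1.48 in WT cells, so that the strains overlapped. GGG over GGT was 1.44 and 1.37 in eEF3d cells, against 1.37 and 1.33 in WT cells. GGA over GGT is set out by its inverse, which was 0.694 and 0.708 in eEF3d cells, against 0.683 and 0.721 in WT cells, again with overlap. In eEF3d cells 7 of the 12 pairs were called, against 65.5% of the 87, among them CCG over each other proline codon at 0.45 to 0.59 and GGT below GGA and GGG by 0.51 and 0.49. In WT cells 8 of the 12 were called, against 66.7% of the 87, with CCG over CCA at 0.47 and GGT below GGA, GGC and GGG by 0.51, 0.45 and 0.44. CCG over CCC, called at 0.21 in WT cells, stood at 0.32 without WT replicate 1 and at 0.10 without WT replicate 2 (limma, adjusted p = 0.47). GGT was therefore the lowest glycine codon in 28 nt RPFs of both strains, although GGC over GGT, at 0.15, did not pass the test in eEF3d cells (limma, adjusted p = 0.11). Without moderation of the variances 0 of the 12 pairs passed in eEF3d cells and 3 in WT cells, with 8 and 7 at an unadjusted p under 0.05.

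Of the 28 nt ratios, 5 of 12 differed between the strains, against 42.5% of the 87. CCG over CCC was 0.30 higher and CCC over CCA changed by −0.32 (limma, adjusted p = 0.032 and 0.021). The other called pairs all held GGC, the glycine codon with the largest 28 nt change: GGG over GGC was 0.35 higher (limma, adjusted p = 0.013), and GGC over GGT and over GGA changed by −0.30 each (limma, adjusted p = 0.033). These 5 calls were lost without eEF3d replicate 1, without eEF3d replicate 2 and without WT replicate 1, each of which left 0 of 12, with 4, 3 and 2 at an unadjusted p under 0.05. The largest change in size over the 12 pairs was 0.35 in 28 nt RPFs, beside 2.04 in 21 nt RPFs.

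The spread within a box, as the SD of log2 occupancy over its 4 codons in 1 library, sums up both readouts. In 21 nt RPFs the proline box had SDs of 0.365 and 0.591 in eEF3d cells, against 1.17 and 1.57 in WT cells, and the glycine box 0.144 and 0.178 in eEF3d cells, against 0.614 and 0.506 in WT cells. The eEF3d spread was thus 0.344 times the WT spread for proline and 0.287 times for glycine, without overlap, but 2 libraries against 2 cannot go below an exact permutation p of 0.333, which both reached. The other 6 boxes had 21 nt ratios of 0.255 to 0.860, with Val at 0.255 and Thr at 0.282, so that both values lie within the range of the other boxes. By the mean of both libraries, proline was the widest of the 8 boxes in WT cells and glycine the narrowest, but in WT replicate 1 the Arg and Ala boxes, with SDs of 1.29 and 1.18, were wider than proline. In 28 nt RPFs the proline box had SDs of 0.284 and 0.248 in eEF3d cells, against 0.203 and 0.258 in WT cells, and the glycine box 0.258 and 0.251 in eEF3d cells, against 0.257 and 0.214 in WT cells. Both boxes overlapped between strains, with ratios of 1.16 and 1.09 (exact two-sided permutation p = 0.667 each), which does not show that the spread was equal. Of the other 6 boxes, 5 (Ala, Arg, Ser, Thr and Val) had 28 nt ratios of 0.387 to 0.803, and Leu had 1.46. Within eEF3d cells the glycine box was wider in 28 nt RPFs, at 0.258 and 0.251, than in 21 nt RPFs, at 0.144 and 0.178.

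**Figure D4:**
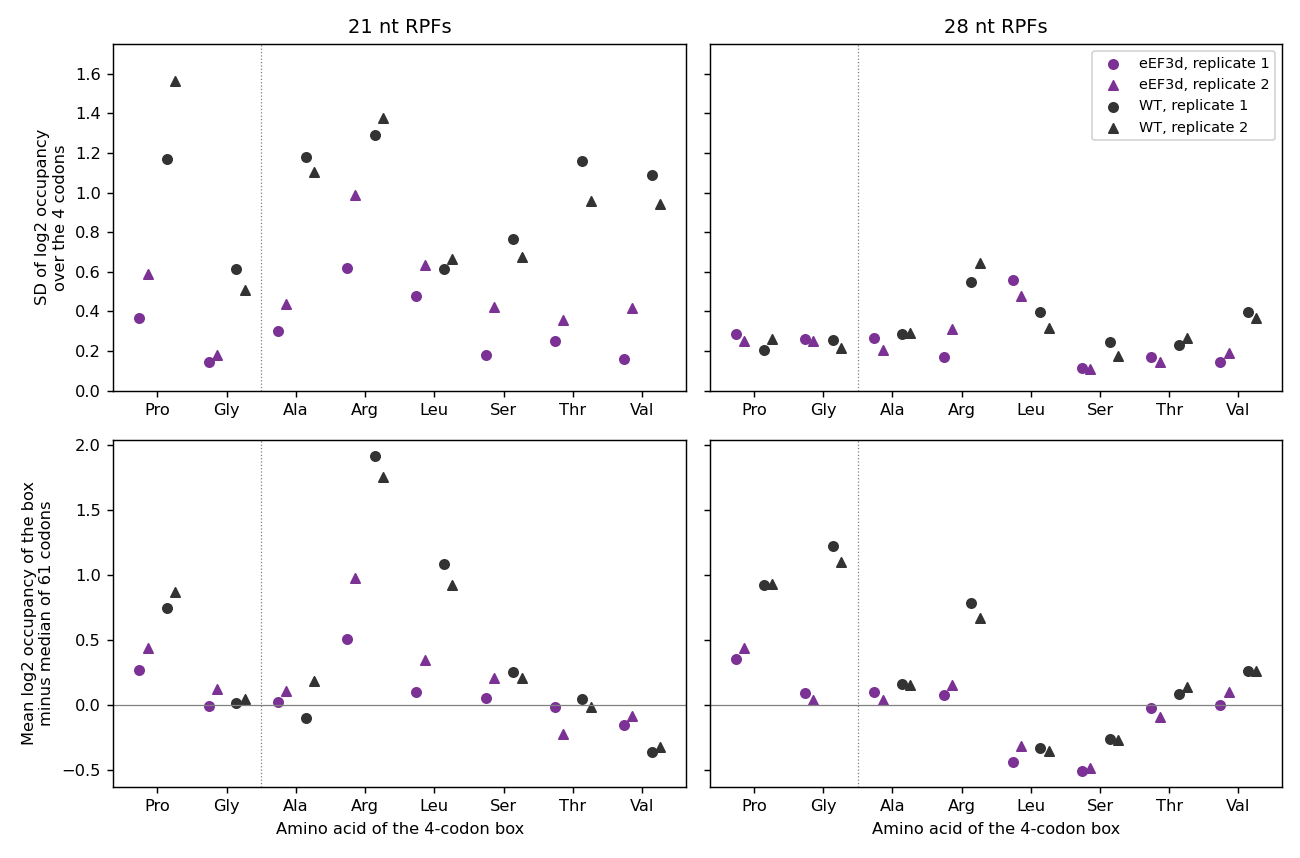
SD of log2 occupancy over the 4 codons of a box (top) and mean log2 occupancy of the box minus the median of all 61 sense codons of that library (bottom), in 21 nt RPFs (left) and 28 nt RPFs (right), for the 8 boxes of 4 codons. Points are single libraries, eEF3d in purple to the left of WT in black, and the dotted line parts proline and glycine from the other boxes. The WT points of glycine and proline are the highest in the lower right panel, where their means are 1.16 and 0.93, and the 21 nt SDs of both boxes are lower in eEF3d cells.

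As a level of the whole amino acid, 21 nt occupancy of proline changed by −0.30 between eEF3d and WT cells (95% interval −0.58 to −0.02; limma, adjusted p = 0.084) and that of glycine by 0.18 (95% interval −0.08 to 0.44; limma, adjusted p = 0.2). limma called 0 of the 2, against 35.0% of the 20 amino acids, and proline alone was at an unadjusted p under 0.05. Against the median codon, the glycine box lay at 0.06 in eEF3d cells and 0.03 in WT cells in 21 nt RPFs. The proline box lay at 0.35 in eEF3d cells and 0.81 in WT cells.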

How the data were processed

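The authors removed adapters and 4 random nucleotides, discarded ribosomal and non-coding RNA, and mapped unique reads to R64 (sacCer3) with STAR; the submitters' processing notes also name CASAVA 1.8. They assigned reads to the A site and deposited 1 ratio for each sense codon of each library, with the density on the codon (3 nt) over that on its coding sequence, leaving out 15 nt at both ends. Read counts cannot be had from these ratios, so depth is unknown and precision rests on 2 libraries per group.

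The 21 and 28 nt RPFs were fitted apart, on log2 ratios, with limma 3.58.1 (R 4.3.3), over 61 codons, 87 synonymous pairs or 20 amino acids (unweighted means), with Benjamini-Hochberg adjustment over each table at 0.05. Only the interaction term took all 8 libraries in 1 fit, with 1 variance per codon over both footprint classes. Replicate SDs in WT and eEF3d cells were 0.207 and 0.209 in 21 nt RPFs. They were 0.078 and 0.085 in 28 nt RPFs. With weights by footprint class, 6 of the 8 codons were again called. In 21 nt RPFs limma used 1 common SD of 0.208 for all codons, and in 28 nt RPFs 1 common SD of 0.119 for all synonymous pairs. For 21 nt pairs it drew each SD strongly towards a shared 0.223, with a weight of 62.6 degrees of freedom. Spreads were computed with Python 3.11.15, numpy 2.4.6, pandas 2.3.3 and scipy 1.17.1. In simulated data where 20 of the 61 codons had a log2 change of 1, the codon test found 98.2% of those with the 21 nt spread and 100% with the 28 nt spread. The interaction term found 96.4%. The test of changed ratios found 85.7% of changed pairs with the 21 nt spread and 100% with the 28 nt spread. False calls made up 2.56% to 5.02% of the calls in these tests. Each simulated codon had the same spread, whereas real replicate gaps differed between codons. Smaller changes, such as most of those in 21 nt RPFs here, were not simulated. All 8 codons were named by rule. The members and lists were chosen with earlier results of these data known. Codon use and tRNA genes came from RefSeq annotation of R64, where 47 coding sequences were left out. Alternatives were a replicate block, no moderation, a variance trend, a pseudocount of 0.1, scaling of libraries by median or mean, weights, and leaving out each library; crossed replicate numbers were added after seeing the data. Tripeptide motifs were not analysed here.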

Additional observations from a re-analysis of the deposited data

Results flagged for a closer look

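At 6 of the 8 codons the difference between eEF3d and WT cells was not the same in 28 nt and in 21 nt RPFs by the interaction term of limma over all 8 libraries, as at 31 of all 61 codons (50.8%). The 28 nt change minus the 21 nt change was −1.53 at GGC, −1.50 at GGT and −1.32 at GGA among glycine codons. It was −0.84 at CCA and −0.73 at CCT among proline codons. At CCG it was 1.18, the only one of these differences above 0. The footprint classes were prepared with different inhibitors from different lysates, and the WT libraries of CHX + ANS were all re-analyzed ones.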

How the results depend on the processing

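All 8 codons kept a lower 28 nt occupancy in eEF3d cells under every alternative run. Without moderation of the variances, the linear model called 0 of 8 codons (0 of 61) in 21 nt RPFs, with 3 and 17 at an unadjusted p under 0.05. In the same setting it called 6 of 8 codons (12 of 61) in 28 nt RPFs, 13 of 61 for the difference between footprint classes, 0 of 12 pairs (1 of 87) in eEF3d and 3 of 12 (9 of 87) in WT 28 nt RPFs, and 0 of 12 (0 of 87, 20 at an unadjusted p under 0.05) in eEF3d 21 nt RPFs. Changes of ratios then gave 0 of 12 (1 of 87) in 21 nt and 0 of 12 (0 of 87, 24 unadjusted) in 28 nt RPFs, and amino acids 1 of 20 in 21 nt RPFs. This setting leaves 2 residual degrees of freedom per feature, and 4 for the difference between classes. With the replicate number as a block, 3 of 8 codons (GGG and CCC were lost) and 0 of 20 amino acids (8 unadjusted) were called in 21 nt RPFs and 7 of 8 codons (19 of 61) in 28 nt RPFs, where CCG was lost (adjusted p = 0.07). Libraries with the same number did not deviate together (correlation of deviations −0.17 in 21 nt and −0.03 in 28 nt RPFs), and the block moved no other count by over 1.5 times. With crossed numbers, chosen after seeing the data, 2 of 12 ratio changes were called in 28 nt RPFs. Centring on the library median left 3 of 8 codons and 4 of 20 amino acids in 21 nt RPFs, and division by the library mean called 1 of the 2 amino acids, Gly.

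Leaving out 1 library gave 0 to 3 of 8 codons (0 to 32 of 61) in 21 nt RPFs, and 20 to 36 of 61 codons for the difference between classes. It gave 3 to 5 of 12 pairs (22 to 43 of 87) in eEF3d 21 nt RPFs, 0 to 5 of 12 changes of ratio (19 to 38 of 87) in 28 nt RPFs, and 0 to 6 of 20 amino acids in 21 nt RPFs. The 28 nt spread of the glycine box in eEF3d cells was 0.991 to 1.19 times that in WT cells, below 1 only without WT replicate 2. The cause of these shifts was not tested. Depth is unknown, so counting error at rare codons such as CCG and GGG could not be set apart from other spread.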
